A study of Mus musculus with 6 samples.

Results

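The expression of 30 genes of cholesterol synthesis, transport and export was described in ST-HSC, or short-term hematopoietic stem cells, multipotent progenitors of the bone marrow with limited self-renewal. The 30 genes were chosen by symbol as a pathway list, and all 30 were found among the 53677 gene symbols of the deposited table. They comprise 18 synthesis enzymes (7 of the mevalonate arm and 11 of the sterol arm), 5 genes of SREBP control, 3 of intracellular transport, and 4 of the LXR receptors and the exporters they drive. Per the labels, the cells carried Kit and CD48 but no lineage markers or CD150, and were sorted from the marrow of C57BL/6J mice. A group of 3 wild-type (WT) mice, labelled dnTCF4-/-, was compared with 3 mice labelled dnTCF4+/+, which express a dominant-negative TCF4, a form of this DNA-binding partner of β-catenin made to block its target genes. The sources used here do not give the promoter or Cre line behind the transgene, or the age and sex of the mice. Poly(A) RNA was amplified with a SMART-Seq kit that does not mark strand, and values are RPKM, reads scaled to gene length and to the counted reads of the library.

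Cells make cholesterol from acetyl-CoA. The mevalonate arm builds farnesyl pyrophosphate, and the sterol arm joins this into squalene, closes the ring and finishes the sterol. SREBP factors, escorted by SCAP and held in the endoplasmic reticulum by INSIG proteins when sterol is plentiful, switch on the enzymes when sterol is scarce. When sterol is in excess, oxysterols activate the LXR receptors, which induce the exporters ABCA1 and ABCG1. In hematopoietic progenitors these exporters are known to restrain proliferation and myeloid output.

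The libraries held 57380000 to 110900000 counted reads. For the cholesterol genes this stood for 12 reads (Nr1h3 in dnTCF4 replicate 1) to 34293 reads (Npc2 in dnTCF4 replicate 2). Among the 11326 genes that averaged 1 RPKM or more, dnTCF4 replicate 3 held the highest of the 6 values for 42.4% and the lowest for 24.3%. WT replicate 1 held the lowest for 36.4%, more than any other library. Immunoglobulin genes took 7.22% to 14.8% of reads in WT against 0.732% to 1.55% in dnTCF4, and RPKM is scaled to a total that includes them. The median log2 fold change of all tested genes was 0.14, and -0.04 after median ratio scaling. The Y-linked gene Ddx3y was at 30.5 and 24.8 RPKM in replicate 1 of WT and dnTCF4 and at 0 in the other libraries. Replicate 1 of each genotype thus held cells with a Y chromosome, and the replicate number is tied to this difference. Of the genes of the sort gate, Kit was at 35.5 to 97.1 RPKM, Cd48 at 813.4 to 1415 and Slamf1, which encodes CD150, at 0.744 to 1.18.

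None of the cholesterol genes passed the test between the genotypes. Of the 30, 27 averaged at least 1 RPKM and were tested, and 0 of these were called (limma, adjusted p under 0.05 over all tested genes), against 0.300% of all tested genes (34 of 11326). At an unadjusted p under 0.05, 1 of the 27 was found, Srebf2, against 9.62% of all tested genes. Voom on recovered reads also called 0 of the 27, against 0.126% of all genes, and limma with the replicate number as a block called 0, against 0.433%. WT and dnTCF4 libraries did not overlap for 3 of the 27 genes, Srebf2, Abcg1 and Ebp, all with dnTCF4 higher, against 15.4% of all tested genes in that direction, and 0 had all dnTCF4 values lower, against 2.26%. Only Srebf2 of these 3 stayed apart after median ratio scaling (1 of 27, against 5.52%) and with immunoglobulin genes left out (1 of 27, against 7.13%, and 0 lower, against 3.41%). Of the 27, 17 had a higher mean log2 value in dnTCF4, against 68.5% of all genes. After median ratio scaling the number was 8, against 43.6%, and with immunoglobulin genes left out it was 11, against 56.3%. The median log2 fold change of the 27 was 0.08. In bulk RNA, a lower level per cell and fewer cells that express a gene cannot be told apart.

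**Figure D1:**
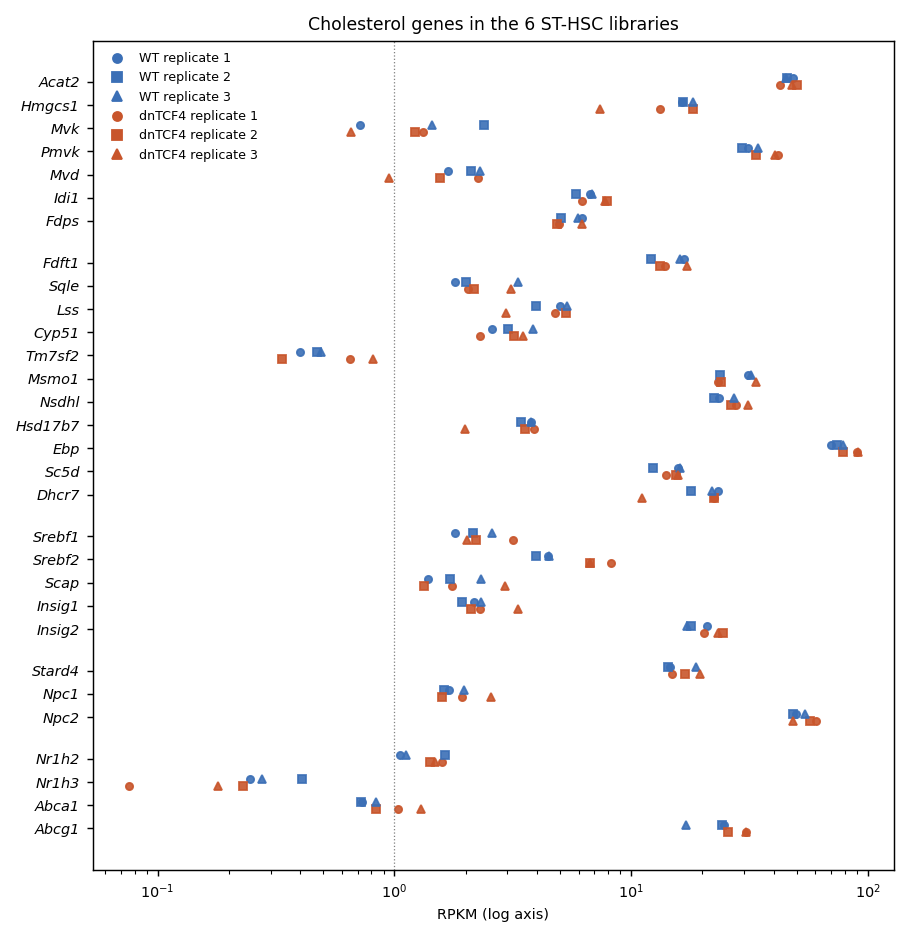
RPKM of the 30 cholesterol genes (log axis) in each of the 6 libraries, with WT in blue, dnTCF4 in orange and marker shape for the replicate number. The dotted line marks 1 RPKM. Genes are grouped from top to bottom as mevalonate arm, sterol arm, SREBP control, intracellular transport, and LXR and export. The genotypes overlap for most genes and are apart for Srebf2, Abcg1 and Ebp (dnTCF4 higher) and for the weakly expressed Nr1h3 (dnTCF4 lower).

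Among the deposited values, SREBP control held the tested gene with the largest log2 fold change, Srebf2. All 5 of its genes had higher values in dnTCF4, against 68.5% of all tested genes, with 0 called and a median log2 fold change of 0.18. After median ratio scaling 3 of 5 were higher, against 43.6% of all genes, and the median was 0.02. Srebf2 encodes SREBP-2, the factor that drives the cholesterol enzymes (GRCm38 chromosome 15, 82147181 to 82205379). WT replicates 1, 2 and 3 held 4.43, 3.98 and 4.49 RPKM, and dnTCF4 replicates 1, 2 and 3 held 8.23, 6.71 and 6.73 RPKM. All 3 dnTCF4 libraries lay above all 3 WT libraries, and replicate 1 was the highest of the dnTCF4 group. The means were 4.30 ± 0.278 and 7.22 ± 0.871 RPKM (SD, n = 3 each), a ratio of 1.68. The log2 fold change on the RPKM + 1 scale was 0.63 (SE 0.17, 95% confidence interval 0.24 to 1.02), and its unadjusted p of 0.0064 in limma became 0.26 after adjustment over all genes. An exact two-sided permutation test gave p = 0.1, the smallest that 3 against 3 allows. After median ratio scaling the log2 fold change was 0.44 and with immunoglobulin genes left out 0.52, with the groups still apart in both. Without dnTCF4 replicate 3 it was 0.67. Over the deposited values and 13 alternatives it stayed between 0.44 and 0.74, the groups were apart in 14 of 14, and it was called in 0, with adjusted p from 0.18 to 0.93.

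The other 4 genes of SREBP control differed less, and their genotypes overlapped. Srebf1, which encodes the SREBP-1 factors that act mainly on fatty acid synthesis, was at 1.80, 2.16 and 2.57 RPKM in WT against 3.16, 2.22 and 2.02 in dnTCF4, as in all later lists in the order of replicates 1, 2 and 3. Its log2 fold change was 0.12 (limma adjusted p = 0.80) and was -0.03 after median ratio scaling. The ratio of Srebf2 to Srebf1 within a library, which no scaling of libraries can alter, was 2.47, 1.85 and 1.74 in WT and 2.60, 3.02 and 3.34 in dnTCF4. This ratio was higher in each dnTCF4 library than in any WT library (exact two-sided permutation p = 0.1).

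Insig1, an anchor that is itself a target of SREBP, was at 2.17, 1.92 and 2.33 RPKM in WT against 2.31, 2.11 and 3.32 in dnTCF4. Only replicate 3 of dnTCF4 lay above the WT range. Insig2, the anchor whose expression depends less on SREBP, was the more abundant per length, at 20.9, 18.0 and 17.2 RPKM in WT and 20.3, 24.4 and 23.4 in dnTCF4. The log2 fold changes were 0.18 for Insig1 and 0.27 for Insig2 (limma adjusted p = 0.73 and 0.66). The ratio of Insig2 to Insig1 was 8.78 ± 1.22 in WT against 9.14 ± 2.29 in dnTCF4 (SD, n = 3 each), a difference smaller than the spread. Scap, the escort, ranged from 1.38 to 2.33 RPKM in WT and from 1.34 to 2.94 in dnTCF4, and the sign of its log2 fold change of 0.08 turned after median ratio scaling (-0.06). Its exons share 985 bases with 5830462I19Rik on the other strand.

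**Figure D2:**
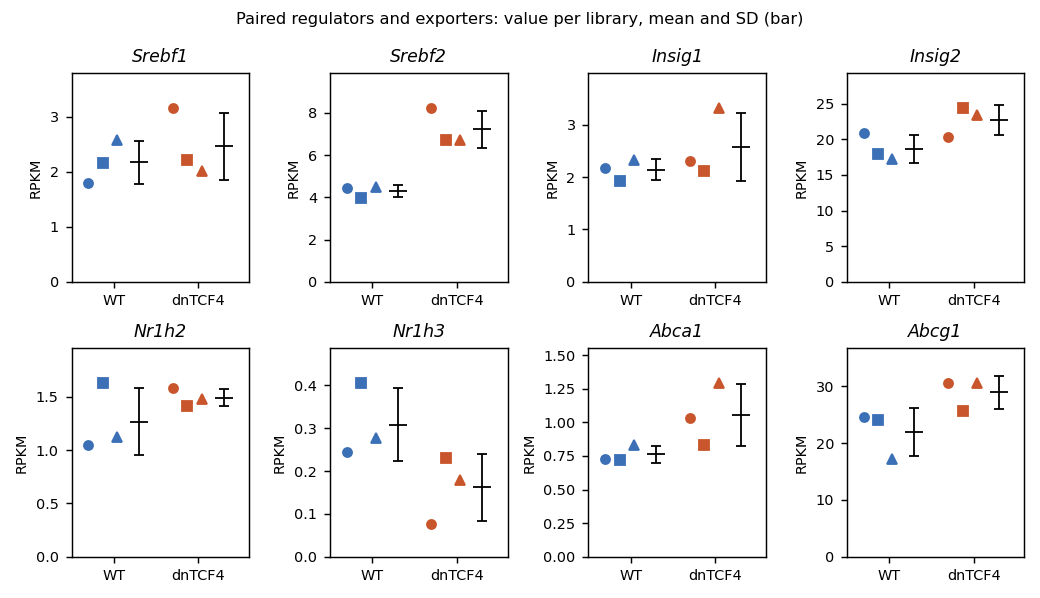
RPKM of 8 genes in each library (linear axes from 0), with the mean and SD of the 3 libraries of a genotype beside the points; circles, squares and triangles are replicates 1, 2 and 3. Srebf2 was at 3.98 to 4.49 RPKM in WT and 6.71 to 8.23 in dnTCF4, while Srebf1, Insig1, Insig2, Nr1h2 and Abca1 overlapped between the genotypes.

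The promoter windows of Srebf2, the tested gene with the highest log2 fold change of the list, and of Hmgcs1, the one with the lowest, are shown because SREBP acts on both genes. They are from RefSeq (GRCm38.p6) and run from 250 bases before to 50 after the annotated start, on the plus strand, at chr15:82147019-82147318 and chr13:119690101-119690400. Capitals mark matches to the sterol regulatory element, its half-sites ATCAC and CCCAC joined without a gap, with up to 1 mismatch, and to the CCAAT box bound by NF-Y (CCAAT, or ATTGG on the other strand).
Srebf2: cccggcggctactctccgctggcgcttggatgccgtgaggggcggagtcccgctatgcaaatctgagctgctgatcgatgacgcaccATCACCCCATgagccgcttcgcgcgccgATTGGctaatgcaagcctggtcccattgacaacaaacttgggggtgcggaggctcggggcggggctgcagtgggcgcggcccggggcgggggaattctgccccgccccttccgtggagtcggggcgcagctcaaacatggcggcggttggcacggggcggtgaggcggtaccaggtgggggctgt
Hmgcs1: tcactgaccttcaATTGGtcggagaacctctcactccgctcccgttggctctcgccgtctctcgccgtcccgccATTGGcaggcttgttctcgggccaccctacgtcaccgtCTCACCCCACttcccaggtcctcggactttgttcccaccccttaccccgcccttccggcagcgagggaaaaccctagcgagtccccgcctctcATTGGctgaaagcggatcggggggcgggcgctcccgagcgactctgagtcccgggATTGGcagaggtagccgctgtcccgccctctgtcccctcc

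The sterol element match of Srebf2 starts at position -163 relative to the annotated start and differs from the motif by C10T, counted from 1 at the 5′ end of the motif. That of Hmgcs1 starts at -138 and differs by A1C. Windows were given for 24 of the 30 genes, 33 windows in all, with none used here for Abcg1, Fdft1, Fdps, Npc1, Sqle and Stard4. A sterol element match on either strand was present in 3 of the 33 (Srebf2, Hmgcs1 and Nsdhl, the last with C8A), against 1.95% of 32851 windows of all genes. CCAAT was in 20 of the 33, against 37.4% of all windows. The E-box CACGTG was in 7 of the 33, from Abca1, Dhcr7, Hsd17b7, Insig1, Sc5d and Scap, against 7.15%. Windows of Scap overlap, and the same E-box is counted in each. The TCF/LEF motif ATCAAAG was in 1, that of Npc2, against 3.73% of all windows, and not in the Srebf2 window. The LXR element, a pair of AGGTCA half-sites spaced by 4 bases, with up to 2 mismatches in all, were in 1, a window of Dhcr7, against 3.02%. These motifs do not overlap one another in the printed windows, and a match in letters does not show binding.

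As deposited, the summed RPKM of the synthesis enzymes was 304.5, 281.9 and 322.9 in WT and 317.5, 312.4 and 323.4 in dnTCF4. The groups overlapped on this scale. The size factors of median ratio scaling were 0.844, 0.933 and 1.05 in WT and 1.06, 1.06 and 1.16 in dnTCF4. Division by these factors puts each dnTCF4 sum below each WT sum, by a small margin between WT replicate 2 and dnTCF4 replicate 1. The overlap therefore holds for the deposited values only. Of 17 tested enzymes, 7 had higher and 10 lower values in dnTCF4, against 68.5% of all tested genes higher. Their log2 fold changes had a median of -0.06, against 0.14 for all tested genes. After median ratio scaling 3 had higher values, against 43.6% of all genes, and the median was -0.22, against -0.04 for all genes. Adjusted p ranged from 0.65 to 0.98 (limma), and 0 of the 17 had an unadjusted p under 0.05.

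The mevalonate arm opens with Acat2, the cytosolic thiolase. It was among the most abundant enzymes, at 48.1, 45.5 and 45.3 RPKM in WT and 42.5, 50.03 and 48.0 in dnTCF4, with a log2 fold change of 0.02. Hmgcs1 makes HMG-CoA from the thiolase product (chromosome 13, 119690379 to 119708260). Its exons share 557 bases with the antisense gene Gm48342. Levels were 16.4, 16.5 and 18.2 RPKM in WT against 13.2, 18.3 and 7.37 in dnTCF4. The dnTCF4 libraries lay on both sides of the WT range, with replicate 3 the lowest and replicate 2 the highest of the 6. Its log2 fold change was -0.45 (limma, SE 0.30, 95% interval -1.16 to 0.27, adjusted p = 0.68), and -0.12 without dnTCF4 replicate 3. After median ratio scaling it was -0.65, and Hmgcs1, Fdps and Cyp51 were then lower in every dnTCF4 library than in any WT library, 3 of 27 against 5.82% of all genes. In that scaling 0 of the 27 were called, against 0.231% of all genes.

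The kinases Mvk and Pmvk, which phosphorylate mevalonate in turn, differed in level, and neither was called. Mvk was low and variable, at 0.712, 2.39 and 1.44 RPKM in WT and 1.32, 1.22 and 0.658 in dnTCF4. Its log2 fold change was -0.24, and -0.0007 without WT replicate 2. Pmvk was at 31.3, 29.4 and 34.2 RPKM in WT and 41.7, 33.7 and 40.6 in dnTCF4, so that only dnTCF4 replicate 2 lay within the WT range. It had the highest log2 fold change of the arm, 0.28 (limma adjusted p = 0.65), and 0.07 after median ratio scaling. The decarboxylase Mvd was at 1.69, 2.10 and 2.29 RPKM in WT and 2.25, 1.55 and 0.947 in dnTCF4. The isomerase Idi1 ranged from 5.84 to 6.84 RPKM in WT and from 6.20 to 7.92 in dnTCF4, with a log2 fold change of 0.15 that turned to -0.04 after median ratio scaling. Farnesyl pyrophosphate synthase, Fdps, ranged from 5.06 to 6.20 RPKM and from 4.88 to 6.20. Its exons share 1124 bases with Gm43738 on the same strand, so its value is uncertain.

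In the sterol arm, Ebp, the sterol isomerase, was the most abundant enzyme (chromosome X, 8185329 to 8193512). It stood at 69.6, 73.9 and 78.5 RPKM in WT against 90.1, 78.8 and 90.8 in dnTCF4. The groups were apart by a small margin between WT replicate 3 and dnTCF4 replicate 2. The means were 74.0 ± 4.48 and 86.6 ± 6.75 RPKM (SD, n = 3 each), a ratio of 1.17. Its log2 fold change was 0.22 (limma adjusted p = 0.69, exact permutation p = 0.1, the smallest possible). After median ratio scaling it was 0.01 and the groups overlapped, as they did with immunoglobulin genes left out.

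Dhcr7, the reductase that ends a branch of the pathway, had the lowest log2 fold change of the sterol arm, -0.22 (limma adjusted p = 0.77). It was at 23.2, 17.8 and 22.0 RPKM in WT and 22.4, 22.4 and 11.1 in dnTCF4, with replicate 3 alone below the WT range. Without that library the log2 fold change was 0.10. Nsdhl, a decarboxylating dehydrogenase, was at 23.4, 22.4 and 27.2 RPKM in WT and 27.8, 26.4 and 31.1 in dnTCF4, higher in dnTCF4 for every replicate number, with a log2 fold change of 0.22 (limma adjusted p = 0.70) and of 0.01 after median ratio scaling. Msmo1, the methyl sterol oxidase, ranged from 23.7 to 32.1 RPKM in WT and from 23.4 to 33.5 in dnTCF4. Sqle, the epoxidase that makes the ring's precursor, was low in both genotypes, at 1.80 to 3.33 and 2.05 to 3.10 RPKM. The remaining tested enzymes, Fdft1, Lss, Cyp51, Hsd17b7 and Sc5d, had log2 fold changes from -0.20 (Hsd17b7) to 0.04 (Sc5d), and their groups overlapped. Tm7sf2, a sterol reductase, was below the filter at 0.452 ± 0.0474 RPKM in WT and 0.597 ± 0.242 in dnTCF4. Exons of Fdft1 share 774 bases with Ctsb on the other strand, and those of Tm7sf2 share 532 bases with Vps51, so their reads cannot be fully told apart.

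**Figure D3:**
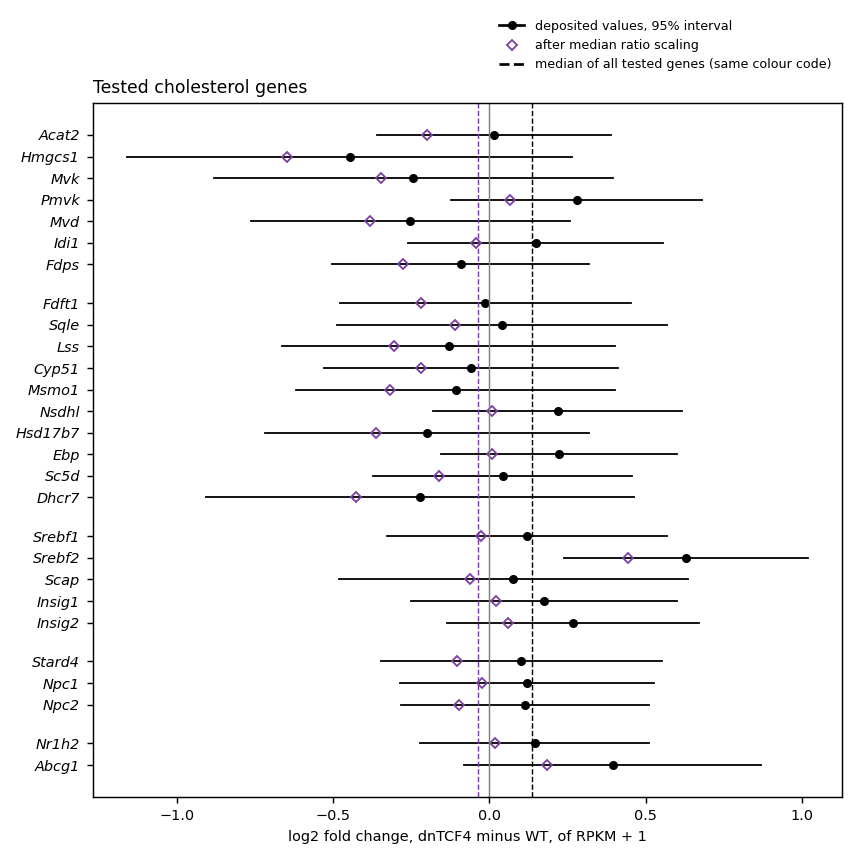
Log2 fold change (dnTCF4 minus WT, of RPKM + 1) of the 27 tested cholesterol genes, with 95% confidence intervals from limma (black) and the value after median ratio scaling (open diamonds); dashed lines mark the medians of all tested genes, 0.14 and -0.04. The unadjusted interval leaves out 0 for 1 gene, Srebf2 (0.24 to 1.02).

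The enzymes did not vary together within the dnTCF4 group. In dnTCF4 replicate 3, 6 of 18 enzymes, Hmgcs1, Dhcr7, Mvd, Mvk, Hsd17b7 and Lss, were at 0.467 to 0.590 times the mean of dnTCF4 replicates 1 and 2. The other 12 were at 1.04 to 1.65 times that mean, among them Msmo1 (1.42) and Sqle (1.47), and 0 lay in between. The cut at 0.6 was chosen after these values were seen. Of all tested genes, 19.1% were under 0.6 in that library, so a low value there is not particular to these enzymes. Without that library the log2 fold changes of Msmo1 and Sqle went from -0.11 to -0.27 and from 0.04 to -0.09, while that of Hmgcs1 went from -0.45 to -0.12, directions that the values of that library fix. Of the SREBP control genes 0 were under 0.6 in that library, with Srebf1 at 0.749, Srebf2 at 0.901 and Insig1 at 1.503 times the mean of the other dnTCF4 libraries.

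Other measures of that library were as follows. Across 10916 genes outside the immunoglobulin loci, the deviation of dnTCF4 replicate 3 from the other dnTCF4 libraries correlated with transcript GC content at -0.30, and such correlations were 0.40 and 0.03 for dnTCF4 replicates 1 and 2 and -0.18, 0.26 and -0.06 for WT replicates 1, 2 and 3. Each is a correlation across genes, which are not independent replicates. The GC content of the longest transcript was 43.1% to 59.0% for the 6 low enzymes and 41.9% to 57.0% for the other 12. Of the proliferation genes, Pcna was at 135.5 RPKM there and at 265.6 to 317.2 in the other 5 libraries, and Mcm5 at 44.1 and 104.9 to 181.3, while Mki67 was highest there (30.4 RPKM). Kit was lowest in that library at 35.5 RPKM, and the summed neutrophil markers were highest at 7525, against 3043 and 3687 in the other dnTCF4 libraries and 614.9 to 3087 in WT. The part of these measures in the enzyme values was not tested.

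**Figure D4:**
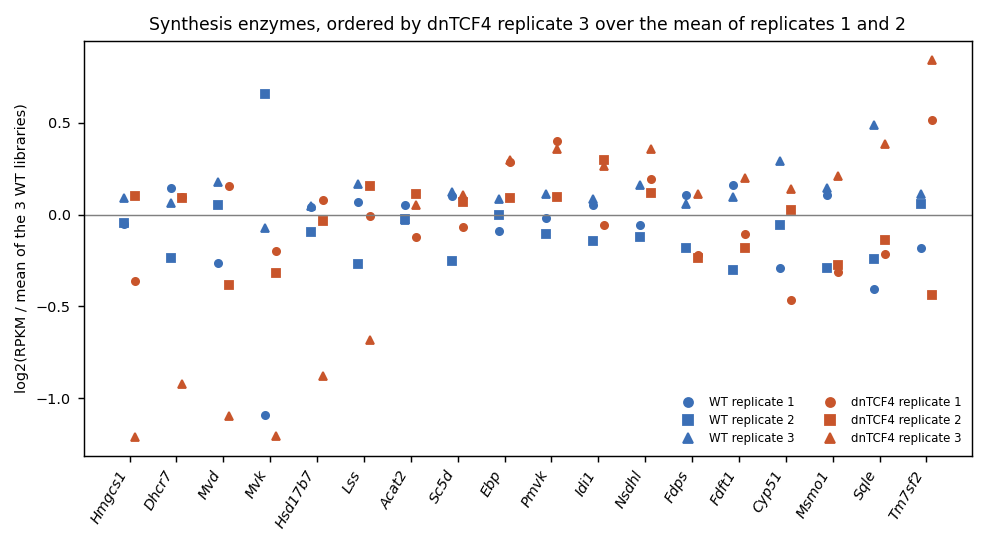
Log2 ratio of each library to the mean of the 3 WT libraries for the 18 synthesis enzymes, ordered from left to right by dnTCF4 replicate 3 over the mean of dnTCF4 replicates 1 and 2. The orange triangles (dnTCF4 replicate 3) of the first 6 enzymes lie below the other dnTCF4 libraries, at 0.467 to 0.590 times their mean, and those of the other 12 lie at 1.04 to 1.65 times.

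The 3 transport genes had higher values in dnTCF4, against 68.5% of all tested genes, with 0 called. After median ratio scaling 0 of 3 were higher, against 43.6% of all genes. Stard4, which carries sterol through the cytosol, was at 14.6, 14.3 and 18.8 RPKM in WT and 14.9, 16.9 and 19.5 in dnTCF4. It lay higher in dnTCF4 for every replicate number, with a log2 fold change of 0.10 that turned after median ratio scaling (-0.10). Npc2, which hands lysosomal cholesterol to NPC1, was abundant, at 49.5, 48.4 and 54.4 RPKM in WT and 60.5, 56.9 and 48.4 in dnTCF4. Its membrane partner Npc1 was at 1.69, 1.61 and 1.97 RPKM in WT and 1.92, 1.59 and 2.55 in dnTCF4. Their log2 fold changes were both 0.12 (limma adjusted p = 0.78 for each), and -0.10 for Npc2 and -0.02 for Npc1 after median ratio scaling. Exons of Npc1 share 511 bases with Rmc1 on the other strand.

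Of the exporters, Abcg1 was far more abundant than Abca1 per length in every library. Abcg1, which moves cholesterol to high-density lipoprotein, was at 24.7, 24.1 and 17.1 RPKM in WT against 30.5, 25.6 and 30.6 in dnTCF4 (chromosome 17, 31057675 to 31117988). All dnTCF4 libraries lay above the WT libraries, with WT replicate 3 lowest. The means were 22.0 ± 4.21 and 28.9 ± 2.87 RPKM (SD, n = 3 each), a ratio of 1.32. Its log2 fold change was 0.39 (limma, SE 0.20, 95% interval -0.08 to 0.87, adjusted p = 0.60). Median ratio scaling reduced it to 0.18, where the groups overlapped, 0.23 without WT replicate 3 and 0.35 without dnTCF4 replicate 3. Abca1, which loads cholesterol onto lipid-poor apolipoprotein, was below the filter, at 0.730, 0.723 and 0.832 RPKM in WT and 1.04, 0.832 and 1.29 in dnTCF4. In a limma fit without the filter its log2 fold change was 0.22 (adjusted p = 0.78). The ratio of Abcg1 to Abca1 was 29.2 ± 7.51 in WT against 28.0 ± 3.80 in dnTCF4 (SD, n = 3 each), a difference smaller than the spread.

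Of the LXR receptors, Nr1h2 (LXR beta, found in most tissues) exceeded Nr1h3 (LXR alpha, typical of liver and macrophages) per length in every library. Nr1h2 was at 1.05, 1.63 and 1.12 RPKM in WT and 1.58, 1.42 and 1.48 in dnTCF4, with a log2 fold change of 0.15 (limma adjusted p = 0.74). Nr1h3 was at 0.244, 0.406 and 0.276 RPKM in WT and 0.0757, 0.229 and 0.180 in dnTCF4, from 12 to 64 reads (chromosome 2, 91184061 to 91202834). Its 3 dnTCF4 values lay below the 3 WT values, also after median ratio scaling, with an exact permutation p of 0.1. In a limma fit without the filter its log2 fold change was -0.17 (adjusted p = 0.68). The ratio of Nr1h2 to Nr1h3 was 4.31, 4.02 and 4.07 in WT and 20.9, 6.19 and 8.22 in dnTCF4. It rests on few Nr1h3 reads.

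Markers of other cell types were also read. Of 11 macrophage markers, 6 were tested and 0 called, against 0.300% of all tested genes. In all dnTCF4 libraries 4 of the 6 (Adgre1, Spic, Vcam1 and Cd68) were higher than in any WT library, against 15.4%. The other 2, Csf1r and C1qb, had lower means in dnTCF4 (log2 fold changes -0.45 and -0.15). The summed level of the 11 markers was 73.8 to 88.4 RPKM in WT and 105.1 to 121.4 in dnTCF4, most of it Cd68. The defining marker Mertk was at 0.0341 RPKM or below in every library. Summed erythroblast markers were 29.6 to 44.5 RPKM in WT and 62.6 to 113.9 in dnTCF4, most of it Hbb-bt, Rhag and Tfrc. Of 6 tested, 0 were called and 4 were higher in every dnTCF4 library than in any WT library, against 15.4%. The other markers of the list were below the filter. Mean RPKM in WT and dnTCF4 was 0.280 and 0.244 for Hba-a1 and 0.267 and 0.245 for Alas2. It was 0.112 and 0.176 for Hba-a2 and 0.397 and 0.961 for Epor. Of 9 neutrophil markers, 8 were on average higher in dnTCF4 (median log2 fold change 1.85), against 68.5% of all tested genes, and 0 were called. Of 8 tested plasma cell markers, all 8 were on average lower (median log2 fold change -2.46), against 3567 of 11326 tested genes. The 2 called, against 0.300% of all tested genes, were the immunoglobulin genes Igkc and Ighm (limma adjusted p = 0.042 for each). The part of other cells in the values of Abcg1 and Srebf2 was not tested.

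Of 26 further genes of sterol handling, 21 were tested and 0 called by limma or voom, with adjusted p from 0.44 to 0.91 in limma and 4 at an unadjusted p under 0.05, against 9.62% of all tested genes. Of the 21, 13 had higher values in dnTCF4, against 68.5% of all tested genes, or 9 after median ratio scaling, against 43.6%. The median log2 fold change as deposited was 0.12, against 0.14 for all genes. In 6 of the 21 the groups did not overlap, all with dnTCF4 higher, against 15.4% of all tested genes. Mylip, the ubiquitin ligase that LXR induces to remove lipoprotein receptors, had the highest log2 fold change of the list. It was at 1.64, 1.26 and 2.01 RPKM in WT and 2.84, 2.24 and 3.63 in dnTCF4, with a log2 fold change of 0.56 (limma adjusted p = 0.44). Among the others were Nceh1 and Lipa, hydrolases of cholesteryl esters, and Gramd1b and Gramd1c, which bring plasma membrane cholesterol to the endoplasmic reticulum. Lipa was at 46.8 ± 2.00 and 62.4 ± 12.7 RPKM, Nceh1 at 9.58 ± 1.97 and 14.0 ± 2.45, Gramd1b at 1.61 ± 0.138 and 2.34 ± 0.205, and Gramd1c at 3.26 ± 0.294 and 4.74 ± 0.690 in WT and dnTCF4 (SD, n = 3 each). After median ratio scaling only Mylip and Gramd1b of these 6 remained apart, 2 of 21 against 5.52% of all genes. The lowest log2 fold change was that of Stard3, a late endosomal sterol carrier, at -0.27. Abcg8, an exporter of liver and gut, was listed at 0 in every library.

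Of 12 genes of fatty acid synthesis and handling, listed as targets of SREBP-1, 10 were tested and 0 called by limma or voom. Adjusted p ranged from 0.35 to 0.90 in limma, and 2 had an unadjusted p under 0.05, against 9.62% of all tested genes. Of the 10, 6 had higher values in dnTCF4, against 68.5% of all tested genes, or 3 after median ratio scaling, against 43.6%. The median log2 fold change was 0.06. The groups were apart for 2 of the 10, against 15.4% of all tested genes, and for the same 2 after median ratio scaling, against 5.52%. Elovl6, a fatty acid elongase, was at 12.2, 10.4 and 11.96 RPKM in WT and 15.4, 17.5 and 19.7 in dnTCF4, with a log2 fold change of 0.56 (limma adjusted p = 0.35). Acss2, which makes acetyl-CoA from acetate, was at 0.570, 0.847 and 1.18 RPKM in WT and 1.37, 1.40 and 2.09 in dnTCF4, with a log2 fold change of 0.49 (adjusted p = 0.48 in limma). Fasn, the fatty acid synthase, had the lowest value, -0.35, at 1.63, 3.73 and 3.18 RPKM in WT and 2.54, 1.61 and 1.69 in dnTCF4, with overlapping groups.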

How the data were processed

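RNA-seq was done on 6 libraries of sorted ST-HSC, 3 per genotype, which the series description gives as separate mice. The authors deposited 1 table of RPKM values. The tools that the submitters' processing notes list are edgeR, DESeq2, featureCounts and STAR, with the builds GRCm38 and mm10, while their roles, their versions and the annotation were not given in the sources used here. Counted reads per library were recovered from RPKM and union exon lengths of GENCODE M21 (GRCm38), which gave whole reads within 0.02 for 92.9% to 93.3% of genes. They were used for depth, for the immunoglobulin share and in voom. Reads of Srebf2, Npc1, Abcg1 and Tm7sf2 are approximate, because their values did not come out whole. Counting limits exclude amplification error.

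A mean of 1 RPKM or more was required, and limma 3.58.1 (R 4.3.3) was run on log2(RPKM + 1) values (eBayes with trend, two-sided, genotype only), with Benjamini-Hochberg adjustment over all tested genes. On data simulated for the comparison of dnTCF4 with WT, 68 of 100 genes changed 2-fold and 100 of 100 changed 4-fold were recovered, with 7 false calls among 10527 genes. Counts were drawn independently, with a fixed spread setting shared by all genes and no library differences besides depth and the set changes. The shares recovered therefore test the code and do not give the power in the real libraries. Python 3.11.15 with pandas 2.3.3 and matplotlib 3.10.9 was used for the rest. Same-numbered libraries deviated together (correlations across genes of 0.17, 0.35 and 0.30), so the replicate number was also fitted as a block. Every pair of replicates differed beyond sampling noise. Alternatives were median ratio scaling, immunoglobulin genes left out with rescaled libraries, a pseudocount of 0.1, no filter, a mean of at least 5 RPKM, each library left out, the block, and voom, which was added after the data were seen.

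The genes and lists were chosen with earlier results of these data known. Named with values per library are genes whose groups do not overlap, the highest and lowest log2 fold change of each class and the pairs Insig1/Insig2, Srebf1/Srebf2, Nr1h2/Nr1h3 and Abca1/Abcg1. The other genes given in full were chosen after their values were seen. Genes with similar profiles, which the rule also covers, and some single genes of the lists are not reported here.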

Additional observations from a re-analysis of the deposited data

How the results depend on the processing

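Of the 27 tested cholesterol genes, 0 were called with the deposited values or in any of the 13 alternatives, and 13 kept their direction throughout. Among all genes, 34 were called with the deposited values, 0 with immunoglobulin genes left out (limma, with 666 at an unadjusted p under 0.05), 6 without a filter, 14 with voom, which was chosen after seeing the data, and 7 to 30 when 1 library was left out. With the replicate number as a block, 49 genes were called, 0 of them cholesterol genes, Srebf2 had an adjusted p of 0.18, and no call on a gene of the cholesterol, sterol handling or fatty acid lists changed. Higher means in dnTCF4 numbered 17 of 27 as deposited, 8 after median ratio scaling, 11 with immunoglobulin genes left out and 11 of 16 at a mean of at least 5 RPKM. The groups did not overlap for 3 of 27 genes as deposited, all higher in dnTCF4, against 15.4% of all tested genes. After median ratio scaling the number was 4, with 1 higher, against 5.52% of all genes, and 3 lower, against 5.82%. With immunoglobulin genes left out it was 1, higher in dnTCF4, against 7.13%. It was 4 to 7 when 1 library was left out. Groups of 3 and 2 libraries are apart by chance more often, so 4 to 7 cannot be compared with 3. The direction turned after median ratio scaling, which moved the median of all genes from 0.14 to -0.04, for Acat2 (-0.20), Idi1 (-0.042), Sqle (-0.11), Sc5d (-0.16), Srebf1 (-0.027), Scap (-0.063), Stard4 (-0.10), Npc1 (-0.024) and Npc2 (-0.10). It turned with immunoglobulin genes left out for Acat2 (-0.11), Sqle (-0.050), Sc5d (-0.081), Scap (-0.0060), Stard4 (-0.022) and Npc2 (-0.014). Leaving out 1 library turned the direction for 12 genes, whose log2 fold changes then ranged from -0.033 to 0.082 for Acat2, -0.15 to 0.068 for Fdft1, -0.094 to 0.23 for Sqle, -0.26 to 0.070 for Lss, -0.16 to 0.076 for Cyp51, -0.33 to 0.018 for Hsd17b7, -0.071 to 0.10 for Sc5d, -0.38 to 0.096 for Dhcr7, -0.019 to 0.21 for Srebf1, -0.14 to 0.24 for Scap, -0.0025 to 0.22 for Npc1 and -0.44 to 0.017 for Stard3. The cause of these turns was not tested. Depth limits Nr1h3, with 12 to 64 reads per library.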
